A study of Mus musculus with 21 samples.

Results

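The classical and accessory genes of MHC class II presentation, together with the gene of their master regulator, were followed through 21 RNA-seq libraries of mouse heart. The set held 7 genes, chosen by name from the known pathway, with earlier results of these data known: H2-Aa, H2-Ab1, H2-Eb1, Cd74, Ciita, H2-DMa and H2-DMb1. All 7 were in the deposited table of 56691 genes, and 6 of them were among the 15013 genes tested, because H2-DMb1 had a mean of 4.62 counts per library and the test was run on genes with a mean count of at least 10.

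The study asked how doxorubicin (DOX), an anthracycline chemotherapy drug with known cardiac toxicity, affects the heart with and without a tumor. The libraries fell into 4 groups. The Control group (n = 5) held non-tumor-bearing mice given normal saline (NS), and the DOX group (n = 5) held non-tumor-bearing mice given DOX. The Tb group (n = 6) held tumor-bearing mice given NS, and the Tb-DOX group (n = 5) held tumor-bearing mice given DOX. DOX was injected intraperitoneally at 5 mg/kg once a week for 3 weeks, and tumors were grown from 4T1 cells, a murine breast cancer line, injected under the skin. Strain, sex and age of the mice were not given in the sources used here. The labels name the 4T-1 line as the source of every library, whereas the study describes heart tissue: the cardiomyocyte markers summed to 10117 FPKM or more in every library, and the epithelial markers of the 4T1 kind to at most 2.46 FPKM. Library totals were 13521200 to 18601445 counted reads.

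MHC class II molecules are surface proteins that show peptides from ingested material to CD4+ T cells. Each is a pair of an alpha and a beta chain, I-A being encoded by H2-Aa and H2-Ab1 and I-E by H2-Ea and H2-Eb1. The invariant chain, the product of Cd74, fills the groove during assembly, and the H2-DM heterodimer, encoded by H2-DMa and the H2-DMb genes, exchanges its last fragment for peptide in the endosome. Ciita encodes the coactivator that switches these genes on, by joining a complex of RFX, CREB and NF-Y proteins that sits on the X and Y boxes of their promoters. In the heart, class II is known mainly from resident macrophages and dendritic cells, and interferon gamma can induce Ciita in other cell types.

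Doxorubicin lowered the class II chains and the invariant chain in hearts without and with a tumor. H2-Aa, H2-Ab1, H2-Eb1 and Cd74 fell to between 7.01% and 12.5% of the Control mean after DOX alone, and to between 12.5% and 18.1% of the Tb mean in tumor-bearing mice. Ciita was at 32% of the Control mean after DOX alone and was called lower by edgeR. With a tumor Ciita was at 39.4% of the Tb mean, called lower by DESeq2 but not by edgeR. H2-DMa was not called by edgeR in either comparison, though DESeq2 called it lower with a tumor, and H2-DMb1 had no count in any DOX library. No tested member was called in the test of whether the response to DOX differed with the tumor, and none was called between Tb and Control.

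**Figure D1:**
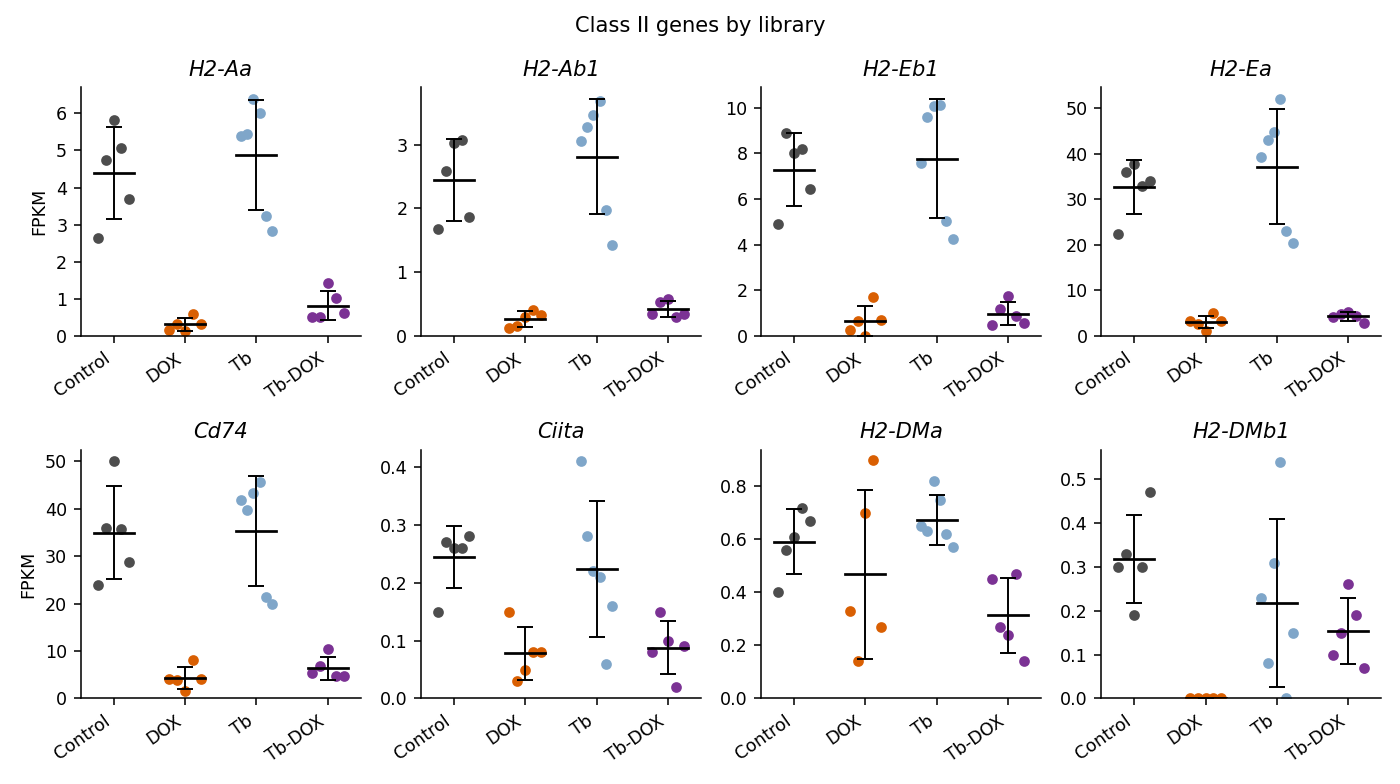
FPKM of 7 class II genes and the related H2-Ea in each library (points), by group, with the group mean (line) and SD (bars); each panel has its own linear axis from 0. The DOX and Tb-DOX libraries of H2-Aa, H2-Ab1, H2-Eb1, H2-Ea and Cd74 lie below every Control and Tb library, whereas those of H2-DMa in the DOX group spread from 0.14 to 0.9 FPKM.

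H2-Aa (ENSMUSG00000036594, GRCm39 chr17:34501718-34506797, minus strand) encodes the I-A alpha chain. Its level was 2.64, 4.74, 5.82, 5.06 and 3.70 FPKM in the Control libraries and 0.16, 0.32, 0.14, 0.60 and 0.32 FPKM in the DOX libraries, where FPKM is the count scaled to exon length and to the library total. With a tumor it was 2.83 to 6.39 FPKM (median 5.43) in Tb and 0.52, 0.50, 1.42, 1.03 and 0.61 FPKM in Tb-DOX. The groups did not overlap in either comparison. The edgeR quasi-likelihood test, in which a gene was called at a Benjamini-Hochberg adjusted p under 0.05 and a log2 fold change of at least 1 in size, gave -3.66 ± 0.375 (SE) for DOX against Control, adjusted p = 1.46e-06, and -2.61 ± 0.332 for Tb-DOX against Tb, adjusted p = 0.000202.

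H2-Ab1 (ENSMUSG00000073421, chr17:34476663-34488393, plus strand) encodes the beta chain that pairs with it. It measured 1.67, 2.59, 3.03, 3.07 and 1.87 FPKM in Control and 0.12, 0.16, 0.29, 0.41 and 0.33 FPKM in DOX. In tumor-bearing mice it measured 1.42 to 3.68 FPKM (median 3.17) in Tb and 0.34, 0.53, 0.58, 0.30 and 0.35 FPKM in Tb-DOX. Every treated library was below every untreated library. The log2 fold change by edgeR was -3.06 ± 0.339 (SE) without a tumor, adjusted p = 3.06e-06, and -2.75 ± 0.313 with a tumor, adjusted p = 8.85e-05.

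H2-Eb1 (ENSMUSG00000060586, chr17:34524841-34535648, plus strand), the I-E beta chain gene, stood at 4.89, 8.87, 8.01, 8.20 and 6.41 FPKM in Control and at 0.25, 0.63, 0, 1.71 and 0.70 FPKM in DOX. The DOX library at 0 was replicate 3, in which a count of 0 allows up to 3 counts. The Tb libraries ranged from 4.25 to 10.1 FPKM (median 8.57), and the Tb-DOX libraries held 0.48, 1.17, 1.75, 0.87 and 0.58 FPKM. Groups were again apart in both comparisons, and DOX replicate 4 was the highest treated library without a tumor. By edgeR the log2 fold changes were -3.30 ± 0.513 (SE), adjusted p = 7.2e-05, and -3.02 ± 0.482, adjusted p = 0.00153. Without DOX replicate 4 the first was -4.05.

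The I-E alpha chain gene H2-Ea (ENSMUSG00000036322, chr17:34561907-34563618, minus strand) was not among the 7 but belongs beside them. It is annotated as a pseudogene in the C57BL/6 reference, since that strain carries a promoter deletion, but it was counted at 22.5 to 37.8 FPKM in Control and 20.4 to 52 FPKM in Tb. It held 3.18, 2.69, 1.17, 4.94 and 3.33 FPKM in DOX and 4.13, 4.75, 5.28, 4.35 and 2.85 FPKM in Tb-DOX. Its log2 fold changes by edgeR, -3.24 ± 0.304 (SE; adjusted p = 6.4e-07) and -3.13 ± 0.29 (adjusted p = 4.48e-06), were called lower in both comparisons.

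Cd74 (ENSMUSG00000024610, chr18:60936920-60945724, plus strand), the invariant chain, had the highest level of the 7 per length. It measured 24.0, 35.9, 49.98, 35.7 and 28.8 FPKM in Control and 4.16, 3.83, 1.67, 8.16 and 4.00 FPKM in DOX. It measured 19.9 to 45.7 FPKM (median 40.8) in Tb and 5.34, 6.86, 10.4, 4.68 and 4.73 FPKM in Tb-DOX. The treated libraries lay below all untreated libraries on both sides, and DOX replicate 4 was again the highest of its group. The edgeR log2 change was -2.81 ± 0.346 (SE), adjusted p = 9.48e-06, in DOX against Control and -2.47 ± 0.33, adjusted p = 0.000337, in Tb-DOX against Tb.

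**Figure D2:**
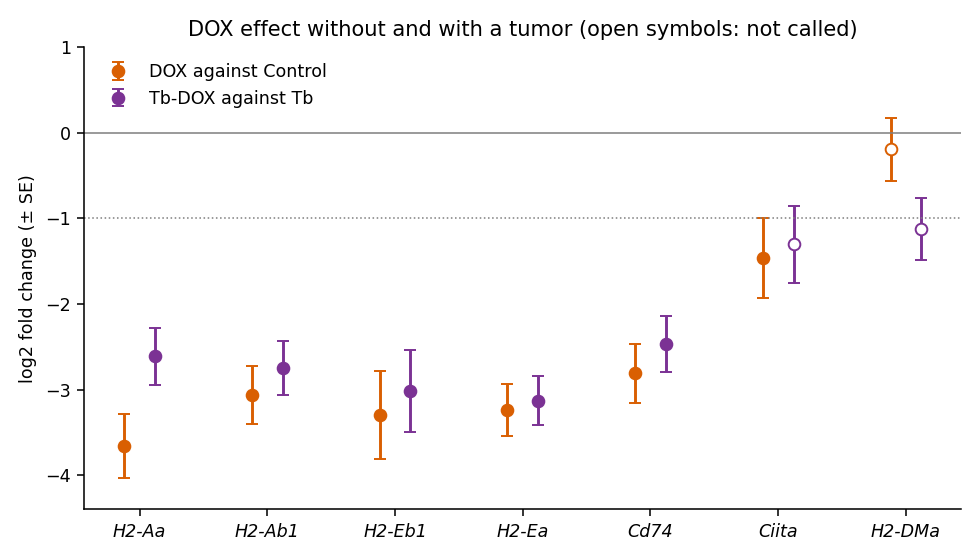
Log2 fold change (y axis, with SE bars) of 6 tested members and H2-Ea in DOX against Control (orange) and Tb-DOX against Tb (purple), filled where called; the dotted line marks the minimum size of 1. The chains and Cd74 lie between -3.66 and -2.47, Ciita lies near -1.46 and -1.3, and H2-DMa is at -0.19 without a tumor and -1.12 with one.

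Ciita (ENSMUSG00000022504, chr16:10297923-10346282, plus strand) was a low-count gene, and its counts are given for that reason. They were 22, 37, 40, 34 and 41 in Control and 23, 4, 7, 11 and 11 in DOX, so that DOX replicate 1 lay among the Control libraries and the other 4 below them. Tb held 0.06 to 0.41 FPKM (median 0.215) and Tb-DOX counts were 14, 23, 13, 3 and 14. Tb replicate 5, at 10 counts, lay inside the range of Tb-DOX. The log2 fold change by edgeR was -1.46 ± 0.471 (SE), adjusted p = 0.0189, without a tumor, and -1.3 ± 0.449, adjusted p = 0.0974, with a tumor. The first was not called without DOX replicate 3 (-1.31, adjusted p = 0.052), and the second was called without Tb replicate 5 (-1.49, adjusted p = 0.0346) and by DESeq2 (-1.32, adjusted p = 0.0426).

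The distance between regulator and targets was given as a description, without a test. The log2 ratio of Ciita to H2-Aa, on log2(FPKM + 0.1), was -3.67 ± 0.289 (SD, n = 5) in Control and -1.12 ± 0.769 (n = 5) in DOX. It was -3.97 ± 0.434 (n = 6) in Tb and -2.22 ± 0.827 (n = 5) in Tb-DOX. Ciita was thus lower relative to Control by less than H2-Aa was, and the offset of 0.1 compresses the differences of Ciita, whose levels are near it.

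The proteins that carry Ciita to the promoters were not called. None of the 7 genes for RFX, NF-Y and CREB subunits passed in DOX against Control by edgeR or DESeq2, with 5 at an unadjusted p under 0.05 and 4 at an adjusted p under 0.05 but a change under the minimum size. Of those 4, Rfxank was at 0.67 ± 0.149 (SE; edgeR adjusted p = 0.00161), Nfyb at 0.43 ± 0.129 (adjusted p = 0.0127), Nfyc at 0.35 ± 0.116 (adjusted p = 0.0203) and Nfya at -0.64 ± 0.194 (adjusted p = 0.0134) on the log2 scale. Rfx5, the RFX subunit mutated in a form of class II deficiency, was at 0.57 (adjusted p = 0.0829), Rfxap at -0.28 and Creb1 at -0.10. With a tumor, none of the 7 was called by either tool and 2 had an unadjusted p under 0.05; their median log2 fold change was 0.02. The summed level of the 7 was 30.9 to 37.1 FPKM in Control and 27.6 to 38.2 FPKM in DOX.

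The promoters of these genes are shown because the complex reads their X and Y boxes. RefSeq windows (GRCm38.p6, 250 bases before to 50 after a start) were matched by symbol and were at hand for 4 of the 7: H2-Eb1 (chr17:34305617-34305916, plus strand), H2-DMb1 (chr17:34152941-34153240, plus strand), H2-Aa (chr17:34287774-34288073, minus strand) and H2-DMa, the latter with a window at chr17:34125268-34125567 (plus strand) and another at chr17:34122582-34122881. Capitals mark matches, on either strand, to the letters ACNGATG, used here for the core of the X box, and GATTGG, used for the inverted CCAAT core of the Y box. The windows are written 5′ to 3′ on the strand of the gene.
H2-Eb1: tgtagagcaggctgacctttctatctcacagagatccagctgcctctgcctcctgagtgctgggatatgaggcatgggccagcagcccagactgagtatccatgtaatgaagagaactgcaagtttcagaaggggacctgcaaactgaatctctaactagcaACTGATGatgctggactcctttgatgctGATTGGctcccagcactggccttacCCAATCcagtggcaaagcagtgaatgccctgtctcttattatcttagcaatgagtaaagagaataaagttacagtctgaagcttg
H2-DMb1: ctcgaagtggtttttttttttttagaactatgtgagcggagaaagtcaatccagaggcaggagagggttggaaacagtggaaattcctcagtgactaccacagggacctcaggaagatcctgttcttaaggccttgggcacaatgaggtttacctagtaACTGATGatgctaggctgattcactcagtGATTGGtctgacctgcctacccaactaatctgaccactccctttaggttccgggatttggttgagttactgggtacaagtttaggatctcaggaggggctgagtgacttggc
H2-Aa: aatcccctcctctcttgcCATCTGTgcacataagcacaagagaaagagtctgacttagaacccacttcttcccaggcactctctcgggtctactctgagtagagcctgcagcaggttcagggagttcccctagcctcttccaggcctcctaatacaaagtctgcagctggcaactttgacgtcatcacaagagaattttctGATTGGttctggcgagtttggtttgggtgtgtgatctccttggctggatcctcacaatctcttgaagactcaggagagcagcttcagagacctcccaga
H2-DMa: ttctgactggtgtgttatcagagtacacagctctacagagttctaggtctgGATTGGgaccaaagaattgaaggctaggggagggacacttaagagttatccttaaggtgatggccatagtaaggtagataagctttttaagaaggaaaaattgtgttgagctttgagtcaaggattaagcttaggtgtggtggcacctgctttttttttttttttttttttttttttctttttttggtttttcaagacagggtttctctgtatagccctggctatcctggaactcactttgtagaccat

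H2-Eb1 and H2-DMb1 had the X core followed by the Y core on the strand of the gene, with starts 28 and 29 bases apart and the Y core 60 and 62 bases before the start site. H2-Aa had the Y core at 49 bases before its start, with no X core upstream of it on that strand, and an X core match on the opposite strand near the window's 5′ end. In H2-DMa the window shown had a Y core at 199 bases before the start and the other had neither; a missing match says only that these letters are not in the window. The X letters were found in 9.85% and the Y letters in 16.1% of all 32851 windows. The pair in this order with starts 25 to 35 bases apart, a spacing chosen after the windows were seen, was found in 6 windows (0.0183%): those of H2-Eb1, H2-DMb1, H2-DMb2, H2-Eb2, Scaper and BC051142.

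H2-DMa (ENSMUSG00000037649, chr17:34338515-34358075, plus strand), the alpha chain of the peptide exchanger, was not called by edgeR in either comparison. It measured 0.40, 0.56, 0.61, 0.72 and 0.67 FPKM in Control and 0.33, 0.14, 0.70, 0.90 and 0.27 FPKM in DOX, where 3 libraries were below and 2 inside or above the Control range. It measured 0.57 to 0.82 FPKM (median 0.64) in Tb and 0.45, 0.27, 0.24, 0.47 and 0.14 FPKM in Tb-DOX, all below Tb. By edgeR its change on the log2 scale was -0.19 ± 0.367 (SE), adjusted p = 0.72, without a tumor and -1.12 ± 0.361, adjusted p = 0.0782, with a tumor. The first was 0.04 without DOX replicate 2, and the second was called by DESeq2 (-1.13, adjusted p = 0.0298) and by edgeR without DOX replicate 2 (adjusted p = 0.0474) or replicate 4 (adjusted p = 0.0429). The table's H2-DMa overlaps Brd2, which lies on the other strand, by 3094 bases, and the sources used here do not say whether counting used the strand. Brd2 was at 0.61 in DOX against Control (edgeR adjusted p = 0.00456) and -0.04 in Tb-DOX against Tb (adjusted p = 0.915); its part in the H2-DMa counts was not tested.

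H2-DMb1 (ENSMUSG00000079547, chr17:34372046-34379204, plus strand) encodes the partner of H2-DMa. Its counts were 8, 8, 5, 7 and 12 in Control and 0 in each of the 5 DOX libraries. They were 6, 2, 8, 17, 0 and 4 in Tb and 3, 4, 6, 5 and 2 in Tb-DOX, which overlapped. Against the 3 counts that a total of 0 allows over the DOX group, the gene was at least 13.1-fold lower in DOX than in Control per counted read. When genes with low counts were also fitted by edgeR, its response differed with the tumor (log2 interaction 5.54 ± 1.42 SE, adjusted p = 0.0229), a fitted size that depends on how zeros are treated. H2-DMb2, a close copy of this gene, held 4, 18, 10, 9 and 4 counts in Control and 1, 0, 2, 0 and 2 in DOX. It held 7 to 19 counts in Tb and 1, 5, 3, 8 and 3 in Tb-DOX, so its mean was 10.9% of Control after DOX alone and 35.1% of Tb with a tumor. Reads could be split between the pair of genes.

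The other class II genes had few counts. H2-Oa and H2-Ob encode H2-DO, which holds H2-DM in check. H2-Oa had 4 counts in all Control libraries and 0 in all DOX libraries, and 15 and 0 counts in Tb and Tb-DOX. H2-Ob held 3 to 13 counts in Control, 0 to 5 in DOX, 4 to 14 in Tb and 0 to 4 in Tb-DOX. H2-Eb2 had at most 3 counts in any library.

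As a group, 5 of 6 tested members were called lower in DOX against Control (H2-Aa, H2-Ab1, H2-Eb1, Cd74 and Ciita), where 6.72% of all tested genes were called lower and 4.73% higher. The members' median log2 fold change was -2.94, against 0.01 over all genes tested. In Tb-DOX against Tb, 4 of 6 were called lower (the same genes without Ciita), where 0.699% of tested genes were called lower and 0.5% higher; the medians were -2.54 and -0.02. DESeq2 called all 6 lower there and 5 of 6 without a tumor. No member was called higher in either comparison. All treated libraries lay below every untreated library for 4 of 6 tested members in DOX against Control and for 5 of 6 in Tb-DOX against Tb, set against 19.4% and 2% of all tested genes.

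The exact two-sided permutation test of mean log2(FPKM + 0.1), run for each member alone, gave p = 0.00794 for H2-Aa, H2-Ab1, H2-Eb1, Cd74 and H2-DMb1 in DOX against Control, the smallest value that 5 against 5 libraries allow. Ciita gave p = 0.0159 and H2-DMa p = 0.302 in this exact test. In Tb-DOX against Tb, the same exact test gave p = 0.00433, the smallest possible, for H2-Aa, H2-Ab1, H2-Eb1, Cd74 and H2-DMa. Ciita gave an exact p = 0.039 and H2-DMb1 an exact p = 0.762 there. These 14 p-values are not adjusted. The labels do not say which animals the libraries came from, so p-values measure the spread between these libraries.

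The size of the DOX effect was then compared between mice without and with a tumor. By edgeR, 0 of 6 tested members were called for the interaction (4.21% of all tested genes were), 1 had an unadjusted p under 0.05, and DESeq2 called 0. The interaction was largest for H2-Aa, at 1.06 ± 0.485 (SE) on the log2 scale with adjusted p = 0.154, and lay between 0.16 and 0.35 for H2-Ab1, H2-Eb1, Cd74 and Ciita. Without DOX replicate 4 it was 1.44 for H2-Aa (adjusted p = 0.0709), 1.02 for H2-Eb1, 0.70 for Cd74 and 0.54 for H2-Ab1, with no member called. H2-DMa had the opposite sign, -0.93 ± 0.513 (adjusted p = 0.23).

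The tumor itself was not accompanied by a called change in class II. In Tb against Control, 0 of 6 members were called by edgeR or by DESeq2 and 0 had an unadjusted p under 0.05, whereas 3.93% of tested genes were called higher and 0.153% lower. The log2 fold changes lay between -0.16 (Ciita) and 0.18 (H2-Ab1). Tb replicates 5 and 6 held the least class II of their group: the 7 members summed to 32.2 and 29.3 FPKM there and to 59.1 to 67 FPKM in the other 4. These 2 libraries also had the highest neutrophil sums, 6500 and 7280 FPKM against 780 to 3020 FPKM in the other 4; the part of this in the class II level was not tested.

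Between the DOX-treated groups, H2-Aa was called higher in Tb-DOX than in DOX, at 1.18 ± 0.386 (SE) on the log2 scale, adjusted p = 0.0367 by edgeR. The call was lost without any of DOX replicates 1, 2, 3 and 5 or Tb-DOX replicates 3 and 4, and in a fit of these groups alone (adjusted p = 0.0728). The other 5 tested members were not called and lay between -0.78 (H2-DMa) and 0.49 (H2-Ab1). In all, 5.04% of tested genes were called higher and 1.5% lower. This comparison shares its libraries with those above.

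Within groups, the chains varied together. Pearson correlations of log2 CPM over the 21 libraries were taken after each group's mean was taken off. CPM is the count scaled to the library total after edgeR's correction for composition (TMM). The correlation was 0.878 between H2-Eb1 and Cd74, 0.83 between H2-Aa and H2-Eb1 and 0.519 between H2-Ab1 and H2-Eb1. Ciita correlated at 0.55 with Cd74 and at 0.141 with H2-Aa, and H2-DMa at -0.0204 to 0.364 with the other members. These are descriptions of libraries that share processing and scaling, and noise in low counts lowers the values of Ciita and H2-DMa.

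The genes most like the tested members were found by correlation with their mean standardized log2 CPM. H2-Ea came first over the 21 libraries (r = 0.98) and after removal of group means (r = 0.888). Over all libraries the next were Smtnl2 (r = 0.917), Smoc2 (r = 0.914), Pdia6 (r = 0.911) and Mrgprh (r = 0.909), which share the group pattern. After removal of group means they were Cox5b-ps (r = 0.836), Cmbl (r = 0.826), Col11a2 (r = 0.812) and Slc1a4 (r = 0.798). Col11a2 lies near the class II genes on the same chromosome.

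Most neighbors of the class II genes were not called. From 100 kb before to 100 kb after the outermost H2 members, 15 genes were tested, of which 5 were class II genes and 10 were not. In DOX against Control, 4 of the 5 class II genes were called lower, with a median log2 fold change of -3.24. Of the 10 others, Col11a2, a collagen gene, was called lower (-1.42, edgeR adjusted p = 0.000379) and Tap1 was called higher, with a median of 0.11. In Tb-DOX against Tb, 4 of 5 and 0 of 10 were called, with medians of -2.75 and -0.18. Psmb9, Tap1, Psmb8 and Tap2, class I processing genes, lie between H2-DMa and H2-Ab1 and were at 0.14, 1.39, 0.23 and 0.05 in DOX against Control.

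Class I, which displays peptides from inside the cell, was compared as the related pathway. Of 10 class I and peptide loading genes, 1 was called higher and none lower in DOX against Control by edgeR, with a median of 0.26 that turned to -0.05 without DOX replicate 4. B2m, the shared light chain and the most abundant of them, was at 0.35 (adjusted p = 0.147). Tap1, the peptide transporter, was at 1.39 ± 0.376 (SE; adjusted p = 0.00647), a value that fell to 0.56 without DOX replicate 4, which removed the call. With a tumor, 0 of 10 were called by edgeR or DESeq2, 1 had an unadjusted p under 0.05, and the median was -0.26. Tapbp was lower in both comparisons at an adjusted p under 0.05 but under the minimum size. By edgeR it was at -0.48 (adjusted p = 0.00166) without a tumor and at -0.41 (adjusted p = 0.0256) with one.

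Interferon gamma signaling genes, which act upstream of Ciita, were mostly not called. Of 8 tested, only Ifngr2, a receptor chain, was called in DOX against Control, at -1.42 ± 0.251 (SE; edgeR adjusted p = 0.000223), from 30.8 ± 5.71 FPKM (SD, n = 5) in Control to 10.4 ± 2.83 FPKM (n = 5) in DOX. Ifngr1, the other chain, was at -0.26 (adjusted p = 0.141) and Irf1 at 0.07. With a tumor, 0 of 8 were called by edgeR or DESeq2 and 4 had an unadjusted p under 0.05; Ifngr2 was at -0.70 (edgeR adjusted p = 0.092).

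Genes that interferon gamma induces were called in the other direction from class II, mostly through a single library. Of 11 tested, 6 were called higher in DOX against Control (Irgm1, Irgm2, Igtp, Iigp1, Tgtp1 and Nlrc5) and none lower. Iigp1, an immunity-related GTPase and the most abundant of them, ranged from 3.36 to 4.72 FPKM in Control and from 3.59 to 115 FPKM in DOX. The 14 genes of the list summed to 370 FPKM in DOX replicate 4 and to 22 to 46.5 FPKM in the other 4 DOX libraries, against 30.4 to 40.6 FPKM in Control. The list's median was 1.73, and DESeq2 called 2 of the 11 higher. Without DOX replicate 4 the median was 0.08 and 1 gene (Tgtp1, at 1.33, edgeR adjusted p = 0.0146) was called. The T cell and thymocyte markers summed to 67.1 FPKM in that library, nearly all of it Cd3e, and to at most 11.5 FPKM in any other. Cd3e had 66 counts or more in every DOX library and at most 21 in Control. It stayed called higher without DOX replicate 4 (3.69, edgeR adjusted p = 0.013). No other marker of that list had more than 11 counts in a DOX library, and Cd3d had at most 2. In DOX replicate 4 the class II members summed to 11.9 FPKM, the highest of the DOX group and below the lowest Control library, 34.1 FPKM. Without it the log2 fold change of H2-Aa was -4.06 (adjusted p = 1.34e-06). With a tumor, 0 of the 11 were called by edgeR or DESeq2 and 0 had an unadjusted p under 0.05.

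**Figure D3:**
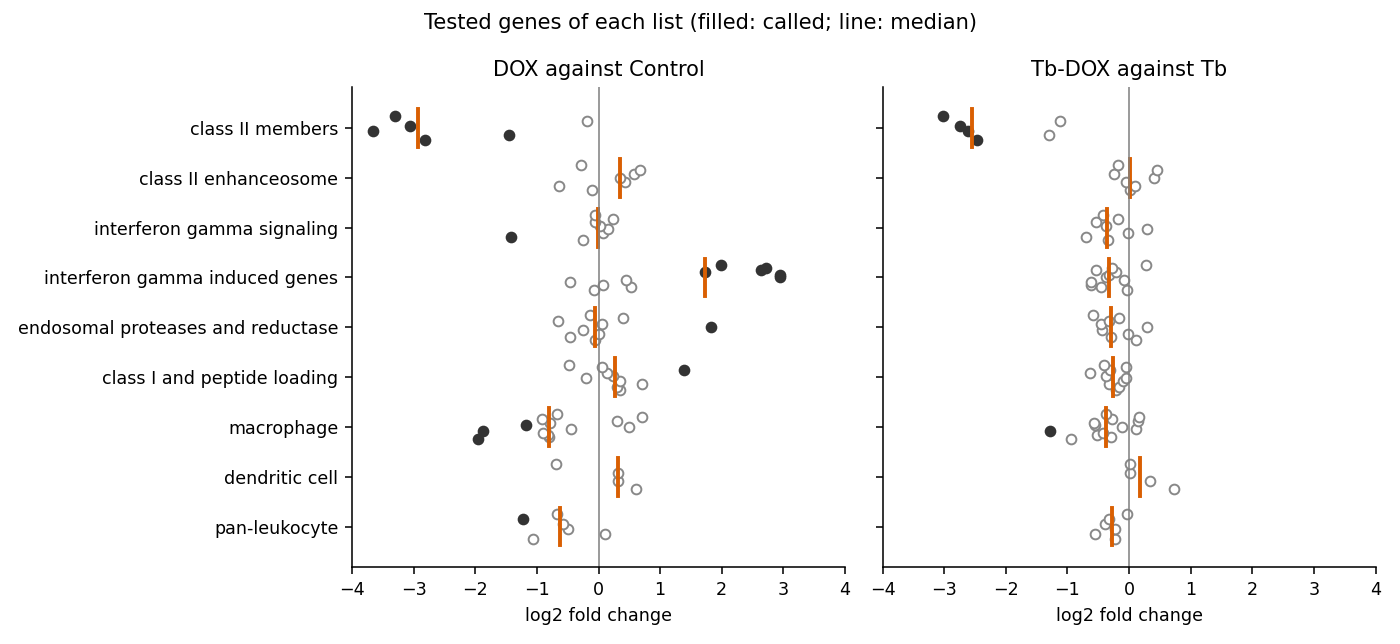
Log2 fold change (x axis) of each tested gene in 9 lists (rows), for DOX against Control (left) and Tb-DOX against Tb (right); filled points were called, open points were not, and the orange line is the list's median. The class II members have medians of -2.94 and -2.54, and the medians of the other lists lie between -0.81 and 1.73 on the left, where the highest, that of the interferon gamma induced genes, was 0.08 without DOX replicate 4, and between -0.38 and 0.18 on the right.

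Later steps of class II presentation were compared as well. Of 9 endosomal genes, which were proteases, the reductase Ifi30 and the protease inhibitor Cst3, 1 was called in DOX against Control: Ctsl, a protease that trims the invariant chain in the thymus, at 1.83 ± 0.306 (SE; edgeR adjusted p = 0.000139). Ctsd, a protease and the most abundant of them over the 21 libraries, was at 0.01. Ctsz (-0.66, adjusted p = 0.000451) and Ctsb (-0.46, adjusted p = 0.000639) were lower by edgeR but under the minimum size. Of 4 tested genes of class II turnover, Cd83, which protects class II from ubiquitin ligases, was called lower (-2.01 ± 0.449, adjusted p = 0.00158), and Marchf8, such a ligase, was at -0.29. Marchf1, another such ligase, was at -0.41 (adjusted p = 0.515) and was called higher in Tb against Control (1.86, adjusted p = 0.00718) and in Tb-DOX against DOX (1.62, adjusted p = 0.0166) by edgeR. Of 5 costimulation genes, Cd80 was called lower (-1.22, adjusted p = 0.00417) and Cd274 higher (1.81, adjusted p = 0.0111), the latter not without DOX replicate 4 (0.38); Icosl, the most abundant of them, was at -0.03. With a tumor, Cd86 was the only gene of these 3 lists called by edgeR, at -1.08 (adjusted p = 0.0348). Lgmn, of the endosomal genes, was lower there but under the minimum size (-0.59, edgeR adjusted p = 0.0283).

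The cells that carry class II were followed through their markers, since fewer cells of a type and less RNA per cell cannot be told apart in whole tissue. Of 13 macrophage markers, all tested, 3 were called lower in DOX against Control: Adgre1 (-1.96), Ccr2 (-1.88) and Csf1r (-1.18), with a list median of -0.81. At an adjusted p under 0.05 without the minimum size, 8 of the 13 were lower and 1 was higher; the most abundant, Lyz2, was at -0.92 (adjusted p = 0.000503). Their summed level was 143 to 175 FPKM in Control and 65.4 to 110 FPKM in DOX. With a tumor only Ccr2 was called (-1.29, edgeR adjusted p = 0.00924), and 3 were lower at an adjusted p under 0.05; the sum was 194 to 278 FPKM in Tb and 121 to 321 FPKM in Tb-DOX. The log2 ratio of Csf1r, the receptor for macrophage growth factor, to H2-Aa was -0.17 ± 0.624 (SD, n = 5) in Control and 2.08 ± 0.764 (n = 5) in DOX, and 0.10 ± 0.464 (n = 6) in Tb and 2.06 ± 0.626 (n = 5) in Tb-DOX. These ratios were chosen after the values were seen and were not tested.

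**Figure D4:**
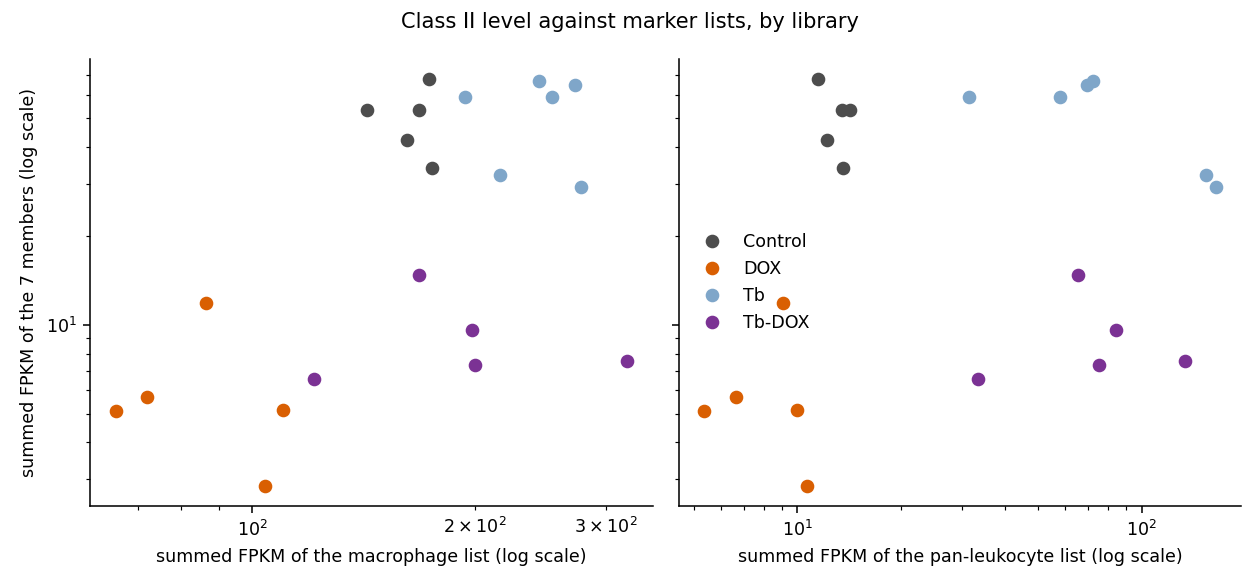
Summed FPKM of the 7 members (y axis, log scale) against the summed FPKM of the macrophage list (left) and the pan-leukocyte list (right; x axes, log scale) in each of 21 libraries, colored by group. The Tb-DOX libraries, at 6.57 to 14.8 FPKM of class II, lie below all Control and Tb libraries, at 29.3 FPKM or more, while their pan-leukocyte sums, 33.5 to 134 FPKM, lie within those of Tb, 31.6 to 164 FPKM. The DOX libraries lie below all Control libraries in the macrophage sum (65.4 to 110 against 143 to 175 FPKM). They also do so in the pan-leukocyte sum (5.36 to 10.7 against 11.5 to 14.2 FPKM).

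Of 9 dendritic cell markers, 4 were tested and none was called in either comparison by edgeR or DESeq2; 1 (Zbtb46, at -0.69, edgeR adjusted p = 0.0126) was lower at an adjusted p under 0.05 but under the minimum size in DOX against Control, and 0 had even an unadjusted p under 0.05 in Tb-DOX against Tb. The list summed to 5.59 to 7.57 FPKM in Control and 4.08 to 6.14 FPKM in DOX, mostly from Zbtb46, which endothelium also expresses, and Clec9a. The other 5 markers had too few counts to be tested, among them Cd209a, Xcr1 and Flt3. Cd209a averaged 0.292 ± 0.199 FPKM (SD, n = 5) in Control, 0.05 ± 0.0539 (n = 5) in DOX, 0.253 ± 0.243 (n = 6) in Tb and 0.052 ± 0.0955 (n = 5) in Tb-DOX. The means of Xcr1 were 0.104, 0.018, 0.0717 and 0.006 FPKM and those of Flt3 were 0.046, 0.024, 0.0533 and 0.014 FPKM in the same order, so these 3 had lower means in the treated group of both comparisons, at no more than 16 counts in any library. Batf3 averaged 0.164, 0.132, 0.257 and 0.07 FPKM and Ccr7 0.102, 0.128, 0.163 and 0.072 FPKM in that order, so Batf3 also had lower treated means in both comparisons, while Ccr7 had a higher mean in DOX, which held a library at 0.45 FPKM, and a lower one in Tb-DOX. Of the tested markers, Clec10a was at 0.61 and 0.73, Clec9a at 0.32 and 0.34 and Itgax at 0.32 and 0.01 on the log2 scale in DOX against Control and Tb-DOX against Tb. Of 8 B cell markers only Blk reached the tested range, and it was called lower in DOX against Control (-1.85, adjusted p = 0.00435); Ms4a1 had at most 4 counts in the Control libraries. Ptprc, which marks all leukocytes, was called lower in DOX against Control (-1.22, adjusted p = 0.00216), the only one of 6 pan-leukocyte genes; Tyrobp, the most abundant, was at -0.67 (adjusted p = 0.184). In Tb against Control all 6 were called higher, with a median of 3.05, while 0 of 6 tested class II members were. The part of these cell types in the class II result was not tested.

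Markers of other cells and tissues also differed between the groups. Of 7 neutrophil genes, 5 were called higher by edgeR in DOX against Control, opposite in direction to class II, with a list median of 3.64; S100a9, the most abundant, was at 3.64 (adjusted p = 0.001) and Retnlg at 7.03 (adjusted p = 0.000874). Their sum was 1.65 to 4.93 FPKM in Control and 8.63 to 84.9 FPKM in DOX. Retnlg and Mmp8 had at most 1 count in any Control library and Ly6g had none. The fitted sizes of these changes against Control depend on how zeros are treated. In Tb against Control all 7 were called higher, with a median of 10.57, and in Tb-DOX against Tb edgeR called 0 and DESeq2 1 (lower), with 1 at an unadjusted p under 0.05.

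The 6 germ cell genes summed to 1.58 to 5.09 FPKM in Control, 0 to 0.38 in DOX, 0 to 0.19 in Tb and 0 to 4.76 in Tb-DOX; none reached the tested range, and Tnp1, the most abundant, had no count in any DOX library. All 5 erythroid genes were called lower in both DOX comparisons by edgeR, with medians of -3.32 and -5.27; Hbb-bs was at -3.39 and -5.49, and Hba-a2 at -3.76 and -6.55. Of 5 fibroblast genes, 2 were called lower after DOX alone and 1 with a tumor, Lum being at -2.19 and -1.08 and the most abundant, Dcn, at 0.32 and 0.02.

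No endothelial gene of 5 and no cardiomyocyte gene of 6 was called in either DOX comparison by edgeR or DESeq2; Pecam1 was at 0.39 and -0.15 and Myh6 at 0.45 and 0.42. At an unadjusted p under 0.05 these were 2 and 4 genes without a tumor and 1 and 3 with one. At an adjusted p under 0.05, 2 cardiomyocyte genes were higher in each comparison, Myh6 (adjusted p = 0.00285 and 0.0225) and Tnnt2 (0.98, adjusted p = 2.45e-05, and 0.77, adjusted p = 0.00222), and the endothelial gene Tie1 was lower without a tumor (-0.36, adjusted p = 0.00558). Thymic epithelium markers summed to at most 0.96 FPKM, with Ccl25 the only one tested (-0.31) and Foxn1 at 0 in every library, and Krt18, the only tested epithelial gene of the 4T1 kind, was at 1.12 (adjusted p = 0.147). The part of these cells and tissues in the class II result was not tested.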

How the data were processed

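Poly(A) RNA was captured on oligo(dT) beads by the authors, and the Illumina reads were cleaned with Cutadapt. The submitters' processing notes name HISAT2, HTSeq 0.6.1, DESeq2 1.34.0 and GRCm39, without roles. They deposited 1 table of whole-number counts and FPKM values for 56691 genes in 21 libraries; the deposited FPKM equal counts scaled to exon length and library total (within 0.006 in 100% of values) and carry no correction for composition. Library totals ranged from 13521200 to 18601445 counts, and counting error is largest for Ciita, H2-DMa and H2-DMb1.

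Counts were fitted with edgeR 4.0.16 (R 4.3.3; TMM scaling, quasi-likelihood F test) in 1 fit of all 4 groups, over 15013 genes with a mean count of at least 10. P-values were adjusted over all tested genes by Benjamini-Hochberg, and a call needed an adjusted p below 0.05 together with a log2 change of 1 or more in size. The procedure was tested on simulated data. DESeq2 1.42.0 was an alternative. Exact permutation tests (SciPy) used log2(FPKM + 0.1). Groups came from the sample titles. Named were the members, the other class II and enhanceosome genes, per further list the most abundant gene and the called gene with the largest change in DOX against Control, the 5 genes most like the members, and genes lying between members on the chromosome; other genes were named after their values were seen. The members and lists were chosen with earlier results of these data known. GRCm39 coordinates are the table's; promoter windows come from RefSeq on GRCm38.p6.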

Additional observations from a re-analysis of the deposited data

Results flagged for a closer look

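Ciita was at 0.15 FPKM in Control replicate 1, against 0.26 to 0.28 FPKM in the other 4 Control libraries, a gap that exceeded Dixon's 95% critical value; of 32 groups of values examined it was the only one, and chance flags about 1 in 20. The same library held the lowest H2-Aa, H2-Ab1, H2-Eb1, Cd74 and H2-DMa of the Control group.

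By the edgeR interaction test, the response to DOX differed with the tumor for 15 genes of the lists and none of the tested members. On the log2 scale it was lower with the tumor for 5 neutrophil genes (Retnlg -7.55, Mmp8 -5.76, S100a8 -4.34, S100a9 -3.90 and Cxcr2 -3.57), for Cd3e (-7.62), for 4 interferon gamma induced genes (Igtp -3.32, Iigp1 -3.26, Irgm2 -3.16 and Nlrc5 -2.99), for Alas2 (-2.52), Tap1 (-1.70) and Ctsl (-1.52). It was higher for 2 fibroblast genes, Col1a1 (1.33) and Lum (1.11), which fell in DOX against Control. The adjusted p-values of the 15 lay between 0.0124 (Retnlg) and 0.0499 (Igtp). Cd3d, the other tested T cell marker, was at 0.35 (adjusted p = 0.85) in the same test. Retnlg and Mmp8 had at most 1 count in any Control library, so their fitted sizes depend on how zeros are treated.

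Without DOX replicate 4, 6 of the 15 were called by edgeR: Retnlg (-7.43), S100a8 (-4.20), S100a9 (-3.87), Cd3e (-4.68), Ctsl (-1.44) and Lum (1.03). Irgm2 kept an adjusted p of 0.0194 at a size under the minimum (-0.95). The other 8 had adjusted p-values from 0.0535 (Col1a1, 1.18) to 0.248 (Igtp, -0.47); Mmp8 (-5.69), Cxcr2 (-3.37), Alas2 (-2.36) and Col1a1 kept about their size, and Iigp1 (-0.81), Nlrc5 (-1.22), Tap1 (-0.88) and Igtp were smaller.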

How the results depend on the processing

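The counts of members called lower kept within 1.5 times under every alternative run. With 1 library left out at a time the count was 4 to 5 in DOX against Control and 4 to 5 in Tb-DOX against Tb. A mean FPKM of at least 0.5 gave 4 and 4, with Ciita not tested; no minimum gave 6 and 4; and DESeq2 gave 5 and 6. Scaling to library totals put the median of all genes at -0.151 in DOX against Control, against 0.005 with TMM, and gave 5 and 4. With no minimum count, 1 member (H2-DMb1) was called for the interaction and 2 in Tb-DOX against DOX, where a fit of these groups alone called 0 and leaving out a library called 0 to 1.

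Among the members, the signs that turned were those of values not called. Cd74 in Tb against Control was 0.02 with library totals, 0.01 in the fit of these groups alone, 0.13 with the replicate block and -0.10 to 0.13 with a library left out. Ciita in Tb-DOX against DOX was 0.18 with library totals and -0.28 to 0.36 with a library left out. Leaving out a library gave -0.60 to 0.04 for H2-DMa in DOX against Control, -0.06 to 1.02 for H2-Eb1, -0.12 to 0.53 for Ciita, 0.75 to 1.44 for H2-Aa, 0.11 to 0.54 for H2-Ab1, 0.10 to 0.70 for Cd74 and -1.16 to -0.53 for H2-DMa in the interaction, and -0.00 to 0.26 for H2-Aa, -0.05 to 0.20 for H2-Eb1 and -0.44 to 0.03 for Ciita in Tb against Control, and -0.00 to 1.07 for H2-Eb1 in Tb-DOX against DOX. The H2-DMb1 permutation p in Tb-DOX against Tb was 0.948 (exact) with an offset of 0.01 FPKM, with the sign turned. The cause of these changes was not tested.

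Replicate numbers did not pair the libraries: residuals of same-numbered libraries correlated at -0.241 to 0.207 over 30 pairs, 4 of them over 0.1. With the replicate block, 5 and 4 members were called lower in the DOX comparisons, 0 for the interaction, 0 in Tb against Control and 1 in Tb-DOX against DOX, as without it.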
